A study of Saccharomyces cerevisiae BY4741 with 8 samples.

Results

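The genes described here were 4 siderophore transporter genes, *SIT1* (YEL065W), *ARN1* (YHL040C), *ARN2* (YHL047C) and *ENB1* (YOL158C), and 3 cell wall mannoprotein genes, *FIT1* (YDR534C), *FIT2* (YOR382W) and *FIT3* (YOR383C). They were chosen by name, with earlier results of these data known. All 7 were found among the 6388 genes on the arrays, with 1 spot each. Cells of the *S. cerevisiae* strain BY4741 were exposed to 80 or 40 μg/ml KP1019, an anticancer ruthenium complex, for 3 h. Each early log phase culture, in synthetic complete medium with glucose, was divided beforehand, and the part without drug was the untreated cells of the same array. Each dose had 2 biological replicates, and each replicate was measured on 2 arrays, A and B, between which the dyes were exchanged (dye reversal), so that 8 arrays were used. All groups share the strain, which carries deletions in *HIS3*, *LEU2*, *MET17* and *URA3*.

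Yeast makes no siderophores, the small iron chelators that many other microbes secrete, but it takes up iron bound to those of other species. Sit1, Arn1, Arn2 and Enb1 are related transporters that import such complexes, and Fit1, Fit2 and Fit3 are mannoproteins anchored in the cell wall that help to retain siderophore-bound iron there. The genes for all of these belong to the iron regulon, which the transcription factors Aft1 and Aft2 switch on when the cell is short of iron.

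Brightness is the mean pixel value of a spot before normalization, in the arbitrary units of the scanner. It is set in part by the brightness of the whole array. Total brightness, used below as an alternative, sums pixels, and its background covered more pixels than the spot (medians of 331 and 49). Background then exceeded the spot in 39.5% of values, so a call lost with total brightness cannot tell how firm that call is. A log2 ratio is normalized, treated over untreated, so that 1 stands for a doubling. A spot is called above blank where it was brighter than the median blank spot by over 3 scaled median absolute deviations. Median brightness of gene spots in treated cells lay between 294 and 3736 over the 8 arrays, and 67.5% to 98.5% of these spots were above blank in treated cells, against 86.4% to 99.2% in untreated cells. Across genes, the log2 ratios of dye-reversal partners correlated with r of 0.406 and 0.661 at 80 μg/ml and 0.832 and 0.698 at 40 μg/ml, where genes are not independent replicates. The spread of log2 ratios was widest in replicate 1 of 40 μg/ml, with a median absolute deviation of 0.68 against 0.32 to 0.39 in the other 3 replicates. Of the genes deleted in the strain, *URA3* was above blank on 0 of 8 arrays in treated and 1 of 8 in untreated cells, and *LEU2* on 3 and 5 of 8. The *MET17* spot went against the strain name. It was above blank on 8 of 8 arrays in both and brighter than 76.2% to 93.3% of gene spots in untreated cells. The *HIS3* spot was above blank on 8 of 8 arrays in both, and whether its probe lies within the deletion was not checked.

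At 80 μg/ml, 3 of 7 genes passed the test and all 3 were higher in treated cells, namely *SIT1*, *ARN1* and *FIT2*. Of all 6388 genes, 2.11% passed as higher and 1.41% as lower. None of the 7 genes was lower at an unadjusted p under 0.05 in the same limma fit. With 40 μg/ml, 1 of 7 genes passed, *FIT2*, and it was higher in treated cells, while 13.0% of all genes passed as higher and 10.3% as lower. The median log2 ratio of the 7 genes was 0.61 at 80 μg/ml and 0.31 at 40 μg/ml, beside medians of -0.0026 and -0.011 over all genes. The arrays measured whole cultures, so that more transcript per cell and more cells with the transcript cannot be told apart.

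**Figure D1:**
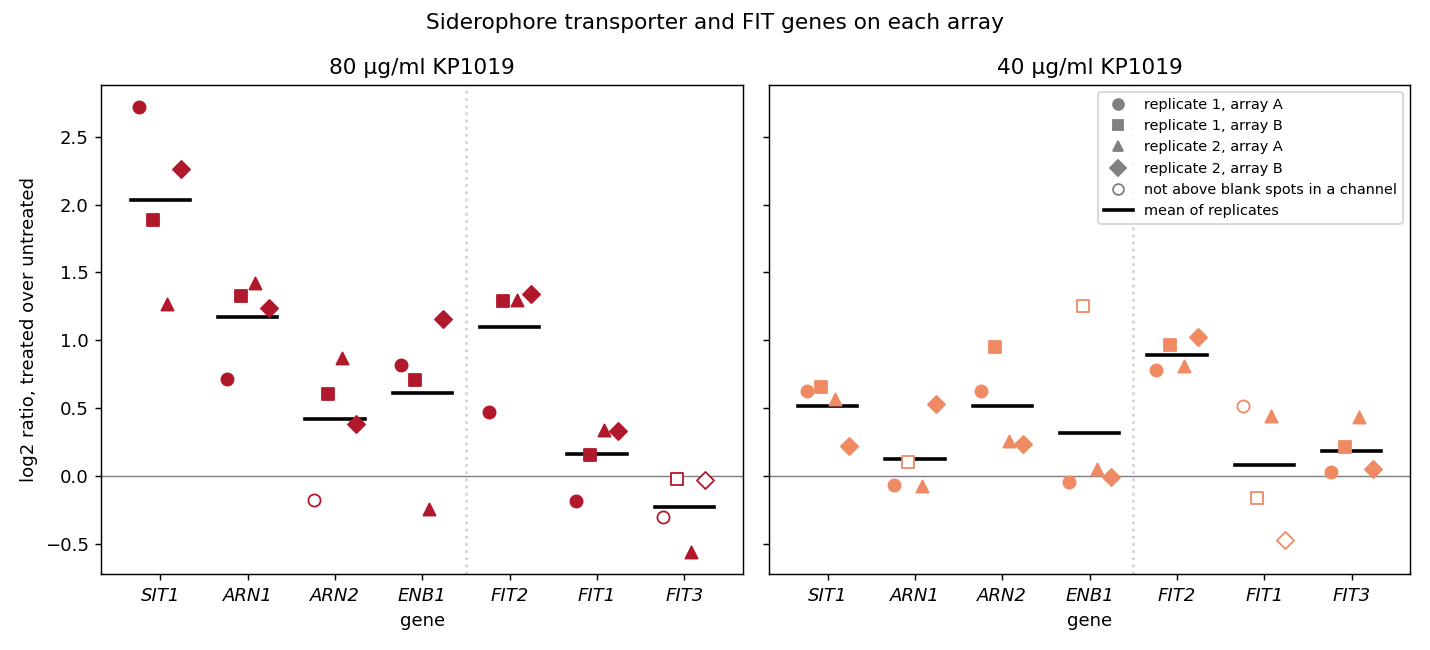
Log2 ratio of treated over untreated cells on each array for the 7 genes, at 80 μg/ml (left panel) and 40 μg/ml (right panel). Each point is 1 array, open points were not above the blank spots in at least 1 channel, and bars are means of 2 replicates. At 80 μg/ml all points of *SIT1*, *ARN1* and *FIT2* lie above 0, while *FIT3* lies below 0 with 3 of 4 points open.

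*SIT1*, whose product imports ferrioxamine B and other hydroxamate siderophores, had the largest change of the 7 genes at 80 μg/ml. Its brightness in replicate 1 was 2055 in treated against 199 in untreated cells on array A and 5044 against 1302 on array B. In replicate 2 it was 3056 in treated against 2198 in untreated cells on array A and 3864 against 596 on array B. Treated cells were brighter on 4 of 4 arrays. The log2 ratios were 2.72 and 1.89 in replicate 1 and 1.27 and 2.27 in replicate 2, with a mean of 2.04 ± 0.38 (SD, n = 2), which is 4.10-fold. This was the 9th highest of 6388 log2 ratios and passed the test (limma, adjusted p = 0.00173). The call held in all 18 alternatives of the fit, with log2 ratios of 1.58 to 2.50.

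The log2 ratios of *SIT1* at 40 μg/ml were 0.63 and 0.66 in replicate 1 and 0.56 and 0.22 in replicate 2. All 4 arrays lay above 0 and below all 4 arrays of 80 μg/ml. On arrays A and B of replicate 1 treated cells were dimmer before normalization, at 407 against 902 and 323 against 392. The same held on array B of replicate 2, at 142 against 252. On these arrays the log2 ratio was thus above 0 only after normalization. The mean of 0.52 ± 0.18 (SD, n = 2) missed the threshold (adjusted p = 0.0884). It passed in 3 alternatives, without replicate 2 of 40 μg/ml (0.64, adjusted p = 0.0206), with crossed replicate numbers as a block (adjusted p = 0.0412) and without array A of replicate 1 of 80 μg/ml (adjusted p = 0.0449), in a range of 0.0206 to 0.248 over all 18.

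*ARN1* encodes a transporter of ferrichromes. At 80 μg/ml its brightness in replicate 1 was 371 in treated against 141 in untreated cells on array A and 4463 against 1698 on array B. In replicate 2 it was 2524 in treated against 1411 in untreated cells on array A and 3436 against 1167 on array B. The treated channel was brighter on every array of this dose. The log2 ratios were 0.71 and 1.33 in replicate 1 and 1.42 and 1.24 in replicate 2, and their mean was 1.17 ± 0.22 (SD, n = 2), or 2.26-fold (adjusted p = 0.0111). The call was lost with plain background subtraction (1.34, adjusted p = 0.0693), with total in place of mean brightness (0.46, adjusted p = 0.0859) and without replicate 2 of 80 μg/ml (1.02, adjusted p = 0.229), in a range of 9.42e-07 to 0.229 over 17 alternatives.

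*ARN1* at 40 μg/ml had log2 ratios of -0.07 and 0.10 in replicate 1 and -0.08 and 0.53 in replicate 2. They lay on both sides of 0 and all below the lowest value of 80 μg/ml. The mean was 0.12 ± 0.15 (SD, n = 2; adjusted p = 0.639), and on array B of replicate 1 the treated spot was not above blank.

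**Figure D2:**
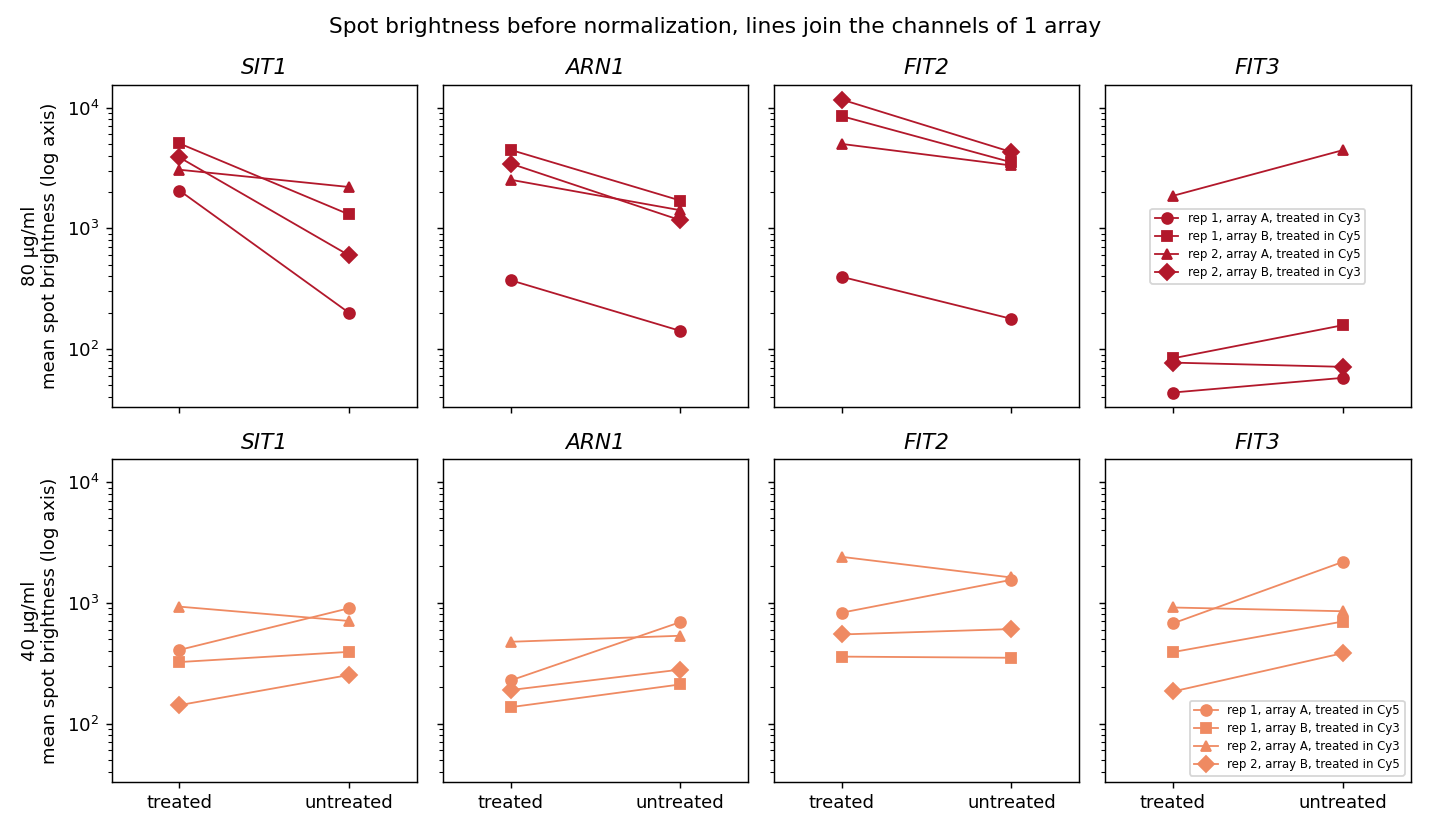
Mean spot brightness (log axis, arbitrary units, before normalization) of *SIT1*, *ARN1*, *FIT2* and *FIT3* in treated and untreated cells at 80 μg/ml (upper row) and 40 μg/ml (lower row). Each line joins the channels of 1 array, and heights depend in part on the brightness of the whole array. *FIT3* at 80 μg/ml was not above blank on 3 of 4 arrays and reached 1858 in treated against 4436 in untreated cells on the other one.

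*ARN2* and *ENB1* did not pass the test at either dose. *ARN2*, whose product imports triacetylfusarinine C, had log2 ratios of -0.18 and 0.60 in replicate 1 and 0.87 and 0.38 in replicate 2 of 80 μg/ml, with a mean of 0.42 ± 0.29 (SD, n = 2; adjusted p = 0.320). On the array with the negative value its spot was dim, 85.4 in treated and 84.2 in untreated cells, and the treated spot was not above blank. Its log2 ratios at 40 μg/ml were 0.63 and 0.95 in replicate 1 and 0.26 and 0.24 in replicate 2, and the mean was 0.52 ± 0.38 (SD, n = 2; adjusted p = 0.0991). All 4 arrays of 40 μg/ml were above 0, and the ranges of the doses overlapped. Before normalization treated cells were dimmer on arrays A and B of replicate 1 of 40 μg/ml (489 against 1051 and 390 against 393). They were also dimmer on array B of replicate 2 (196 against 347). *ARN2* passed at 80 μg/ml in 4 of 17 alternatives, such as each dose fitted alone (adjusted p = 0.0458). Leaving out either replicate of 40 μg/ml gave this same fit at 80 μg/ml, so these alternatives were not separate. At 40 μg/ml it passed in 2 of 17, such as with crossed replicate numbers as a block (adjusted p = 0.0402). Without replicate 2 of 40 μg/ml its mean at that dose was 0.79.

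*ENB1* encodes the enterobactin transporter. Its log2 ratios at 80 μg/ml were 0.82 and 0.71 in replicate 1 and -0.24 and 1.15 in replicate 2, with a mean of 0.61 ± 0.22 (SD, n = 2; adjusted p = 0.148). The arrays of replicate 2 differed most, and on array A, where the value was negative, its brightness was 529 in treated and 567 in untreated cells, against 6856 and 2683 on array B. The medians over all gene spots were 2518 in treated and 4017 in untreated cells on array A and 3736 and 3224 on array B. Set against these medians, the brightness on array A does not itself give a negative ratio. Which step of the processing gave it was not tested. The mean at 80 μg/ml was 0.81 with no background correction (adjusted p = 0.0751) and 0.92 with the deposited table (adjusted p = 0.0633). Without array A of replicate 2 the mean was 0.96 and passed the test (adjusted p = 0.0185), as it did with each dose fitted alone (adjusted p = 0.00520). It passed in 6 of 16 alternatives, among which the fit of this dose alone counts more than once. The log2 ratios of *ENB1* at 40 μg/ml were -0.04 and 1.25 in replicate 1 and 0.05 and -0.01 in replicate 2, so that 3 of 4 arrays lay near 0. The mean was 0.31 ± 0.41 (SD, n = 2; adjusted p = 0.283). The high value came from an array on which the untreated spot was not above blank, and without replicate 2 of 40 μg/ml the mean of 0.60 passed (adjusted p = 0.0181). The mean over arrays with treated cDNA in Cy5 was 0.23 at 80 μg/ml and -0.03 at 40 μg/ml, below the means with treated cDNA in Cy3 of 0.99 and 0.65.

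*FIT2* passed the test at both doses. At 80 μg/ml its brightness in replicate 1 was 396 in treated against 178 in untreated cells on array A and 8492 against 3522 on array B. In replicate 2 it was 4997 in treated against 3315 in untreated cells on array A and 11647 against 4280 on array B. All 4 arrays were brighter in treated cells. Array A of replicate 1 was dim as a whole, with a median over all gene spots of 708 in treated and 515 in untreated cells, against 2518 to 3736 and 3224 to 4017 on the other arrays of this dose. The log2 ratio on that array was 0.47, and on the other 3 it was 1.29, 1.30 and 1.34, which gave a mean of 1.10 ± 0.31 (SD, n = 2), or 2.15-fold (adjusted p = 0.0171). This call was lost with plain background subtraction (1.18, adjusted p = 0.0905), with total brightness (0.79, adjusted p = 0.163), with only the arrays that had treated cDNA in Cy3 (0.91, adjusted p = 0.0757) and without replicate 2 of 80 μg/ml (0.88, adjusted p = 0.401), in a range of 5.99e-06 to 0.401 over 18 alternatives.

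*FIT2* at 40 μg/ml had log2 ratios of 0.78 and 0.96 in replicate 1 and 0.81 and 1.02 in replicate 2. These were the closest replicates of the 7 genes at this dose, with a mean of 0.89 ± 0.03 (SD, n = 2), or 1.86-fold (adjusted p = 0.0150). By log2 ratio it ranked 416 of 6388 genes at this dose, and 78 at 80 μg/ml. Its brightness in replicate 1 was 828 in treated against 1550 in untreated cells on array A and 358 against 350 on array B. In replicate 2 it was 2401 against 1620 on array A and 547 against 606 on array B. Treated cells were dimmer over all gene spots, with medians of 294 to 1165 against 610 to 1815 in untreated cells. On array A of replicate 1 and array B of replicate 2 the log2 ratio was thus above 0 only after normalization. The call was lost with background subtraction (1.02, adjusted p = 0.0507) and with total brightness (0.56, adjusted p = 0.187), in a range of 0.000161 to 0.187.

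*FIT1* and *FIT3* did not pass at either dose. *FIT1* had log2 ratios of -0.18 and 0.15 in replicate 1 and 0.33 and 0.33 in replicate 2 of 80 μg/ml, and 0.51, -0.16, 0.44 and -0.48 on the arrays of 40 μg/ml. Its means were 0.16 ± 0.25 at 80 μg/ml (SD, n = 2; adjusted p = 0.714) and 0.08 ± 0.14 at 40 μg/ml (SD, n = 2; adjusted p = 0.773). At 40 μg/ml the spot was above blank on 2 of 4 arrays in treated cells and on 2 of 4 in untreated cells, and in both on only 1 array. The sign of its mean turned with total brightness at 80 μg/ml and with background subtraction at 40 μg/ml. With another scaling its mean at 40 μg/ml was larger, 0.63 with median centring (adjusted p = 0.0633) and 0.65 with the deposited table (adjusted p = 0.0591).

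The *FIT3* spot was at or below the level of the blank spots on most arrays of 80 μg/ml. Its log2 ratios were -0.31 and -0.02 in replicate 1 and -0.56 and -0.03 in replicate 2 of 80 μg/ml, with a mean of -0.23 ± 0.09 (SD, n = 2; adjusted p = 0.513), or -0.44 with median centring (adjusted p = 0.335) and -0.50 with the deposited table (adjusted p = 0.271). Only the array with the lowest value had a spot above blank, at 1858 in treated and 4436 in untreated cells, and the other arrays had 43.6, 83.8 and 77.1 in treated against 57.7, 157 and 71.2 in untreated cells. At 40 μg/ml the spot was above blank on 4 of 4 arrays, with log2 ratios of 0.03, 0.21, 0.44 and 0.05. Their mean was 0.18 ± 0.09 (SD, n = 2; adjusted p = 0.443). Except on array A of replicate 2, treated cells were dimmer before normalization at this dose.

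The comparison of the doses asked whether the response of these genes grew with the dose. Between the doses 0 of 7 genes passed the test and 2 of 7, *SIT1* and *ARN1*, had an unadjusted p under 0.05, while 0.141% of all genes passed and 20.9% had an unadjusted p under 0.05. The log2 ratio of *SIT1* was higher at 80 than at 40 μg/ml by 1.52 (95% interval 0.89 to 2.15, adjusted p = 0.0938) and that of *ARN1* by 1.05 (0.49 to 1.62, adjusted p = 0.134). With the replicate number as a block both passed, at adjusted p of 0.00151 for *SIT1* and 0.0292 for *ARN1*, although the number is shared by label only. Over all alternatives the difference passed in 8 of 17 for *SIT1* and in 5 of 16 for *ARN1*. For *FIT2* the difference was 0.21 (95% interval -0.37 to 0.79, adjusted p = 0.652), and the interval leaves room for a difference in either direction. The difference was 0.30 for *ENB1* (-0.35 to 0.95, adjusted p = 0.564), -0.10 for *ARN2* (-0.76 to 0.56, adjusted p = 0.862), 0.08 for *FIT1* (-0.49 to 0.65, adjusted p = 0.875) and -0.41 for *FIT3* (-0.94 to 0.12, adjusted p = 0.331). Each dose had its own set of arrays, so that dose and array set cannot be told apart.

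**Figure D3:**
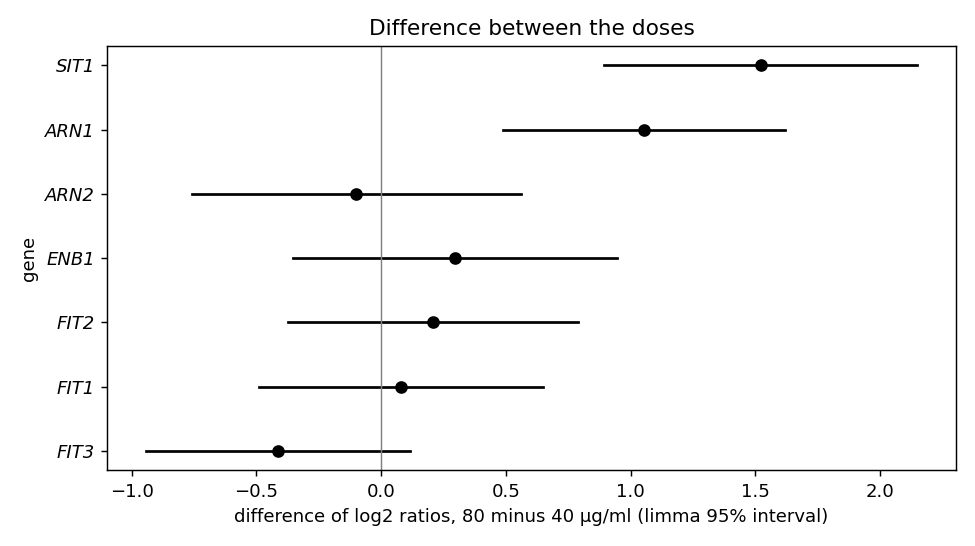
Difference of log2 ratios, 80 minus 40 μg/ml, for the 7 genes, with the 95% interval of the limma fit (n = 2 replicates per dose). The intervals of *SIT1* and *ARN1* lie above 0, and those of the other 5 genes include 0.

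The methods of the study called a gene changed at 3.5-fold or more, with a difference of at most 50% between dye-reversal arrays and a range of at most 3.5 over the smaller fold change, in both replicates. The study applied them to its own ratios of total signal, while here they were applied to the normalized ratios of mean brightness. On these, 0 of 7 genes were called at 80 μg/ml and 0 of 7 at 40 μg/ml. Of all genes, 0.235% and 0.376% were called at 80 and 40 μg/ml. *SIT1* at 80 μg/ml reached the fold, with 5.15-fold in replicate 1 and 3.61-fold in replicate 2, but its dye-reversal arrays differed by 56.0% and 66.4%. It was called without the limit on this difference. *ARN1* at 80 μg/ml was called where 2-fold was asked, with 2.07-fold and 2.52-fold in the replicates and differences of 42.1% and 13.0%. The paper states that induction of Fit2 and Fit3 by KP1019 was not seen in its microarray analysis. *FIT2* passed limma here at 2.15-fold at 80 μg/ml and 1.86-fold at 40 μg/ml, both below the 3.5-fold of the criteria. For size, *HUG1* (YML058W-A), a gene induced by DNA damage, had the highest log2 ratio of all genes, with 5.07 ± 0.32 at 80 μg/ml and 5.90 ± 0.14 at 40 μg/ml (SD, n = 2 each).

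Of 21 other genes of the iron regulon, a list also chosen with earlier results of these data known, 20 were measured. The spots of *FRE4* and *FRE5* were above blank on at most 2 of 4 arrays in treated or untreated cells at each dose. At 80 μg/ml 3 of 20 passed as higher and 0 as lower, with none lower at an unadjusted p under 0.05, beside 2.11% and 1.41% of all genes. These were *SMF3*, a vacuolar iron transporter (1.04 ± 0.18, adjusted p = 0.0241), *TIS11*, whose product destabilizes mRNAs of iron-using proteins (0.95 ± 0.15, adjusted p = 0.0226), and *BNA2*, an enzyme of NAD synthesis (1.28 ± 0.62, adjusted p = 0.0261). None of these calls held without replicate 1 of 80 μg/ml (adjusted p = 0.360, 0.490 and 0.492), and those of *SMF3* and *TIS11* were also lost without replicate 2 (0.105 and 0.190). With total brightness *TIS11* was at 0.0058 (adjusted p = 0.994) at 80 μg/ml. The arrays of *BNA2* at 80 μg/ml had log2 ratios of 1.89 and 1.56 in replicate 1 but -0.31 and 2.00 in replicate 2. Its mean was 0.62 with treated cDNA in Cy5 and 1.95 with treated cDNA in Cy3. At 40 μg/ml 3 of 20 passed as higher and 4 of 20 as lower, beside 13.0% and 10.3% of all genes. The higher ones were *SMF3* (1.24 ± 0.32, adjusted p = 0.00733), the heme oxygenase gene *HMX1* (1.14 ± 0.61, adjusted p = 0.0147) and the ferric reductase gene *FRE2* (0.84 ± 0.42, adjusted p = 0.0237). *SMF3* passed in all 18 alternatives at 40 μg/ml. The call of *HMX1* was lost with background subtraction (adjusted p = 0.0564) and with total brightness (0.46, adjusted p = 0.0664). That of *FRE2* was lost with subtraction (adjusted p = 0.0612), with total brightness (0.05, adjusted p = 0.788) and without replicate 1 of 40 μg/ml (0.54, adjusted p = 0.0645).

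*FET3* and *FTR1*, which encode the oxidase and the permease of high-affinity iron uptake, were lower at 40 μg/ml, at -1.52 ± 0.51 (adjusted p = 0.00757) and -1.34 ± 0.43 (adjusted p = 0.00721). The call of *FET3* was lost with total brightness (-0.80, adjusted p = 0.0513), and that of *FTR1* held in all 18 alternatives. Their values at 80 μg/ml were 0.73 ± 0.41 (adjusted p = 0.136) and 0.36 ± 0.18 (adjusted p = 0.384). The biotin transporter gene *VHT1* (-0.63 ± 0.24, adjusted p = 0.0345) and *TIS11* (-0.61 ± 0.09, adjusted p = 0.0349) were also lower at 40 μg/ml. The call of *VHT1* was lost in 7 of 18 alternatives and that of *TIS11* in 6 of 18. Among them was each dose fitted alone (adjusted p = 0.0737 and 0.0877), a fit that these counts hold more than once. With total brightness *TIS11* was at -0.04 (adjusted p = 0.834). The medians over the 20 genes were 0.28 at 80 μg/ml and -0.10 at 40 μg/ml. Between the doses 0 of 20 passed, and 6 of 20 had an unadjusted p under 0.05, beside 20.9% of all genes, the lowest adjusted p being 0.0660 for *FET3*, with a difference of 2.26. At 80 μg/ml 0 passed with background subtraction, where 53 of 5943 genes passed. With arrays scaled to 1 spread 7 passed, beside 1500 of 6388 genes. At 40 μg/ml the number was 3 with subtraction (389 of 5943 genes) and 8 with the crossed replicate block (2127 of 6388). Between the doses it was 0 with subtraction (0 of 5943) and 6 with the crossed block (830 of 6388). Of 6 genes for the iron regulators and their partners, 0 passed at 80 μg/ml, where 1 had an unadjusted p under 0.05, beside 18.5% of all genes. At this dose the *FRA2* spot was above blank on 1 of 4 arrays in treated and 0 of 4 in untreated cells. At 40 μg/ml 1 of 6 passed, *AFT1*, which was lower (-0.70 ± 0.23, adjusted p = 0.0253), beside 10.3% of all genes that passed as lower. SD are over n = 2 replicates throughout.

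**Figure D4:**
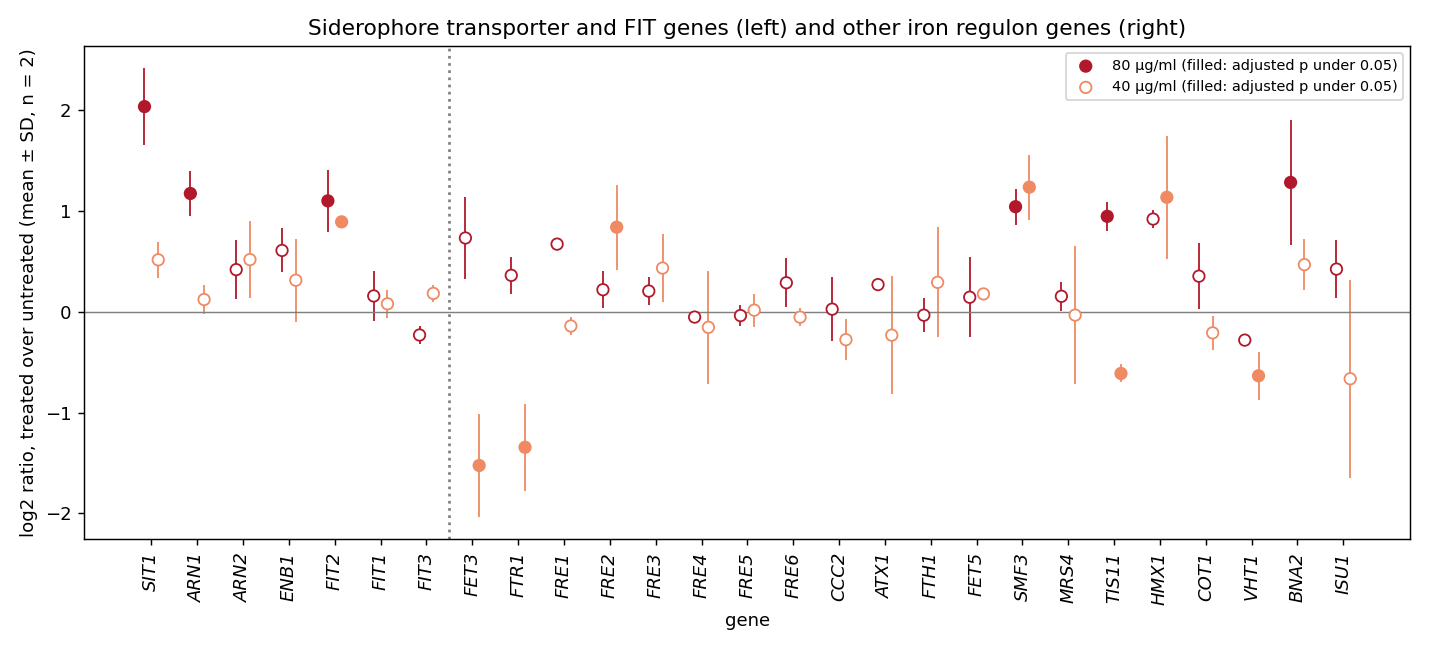
Log2 ratio of treated over untreated cells (mean ± SD, n = 2) at 80 μg/ml (dark red) and 40 μg/ml (orange) for the 7 genes, left of the dotted line, and 20 other iron regulon genes. Filled points passed limma at an adjusted p under 0.05. *FET3* and *FTR1* lie lowest at 40 μg/ml, at -1.52 and -1.34, and *SIT1* lies highest at 80 μg/ml, at 2.04.

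The genes beside the 7 on the chromosomes, by the order of the RefSeq annotation, did not pass at 80 μg/ml. *FIT2* and *FIT3* lie beside each other between the ferric reductase genes *FRE3* and *FRE5*, with YOR381W-A, not measured here, next to *FRE3*. The log2 ratios at 80 μg/ml were 0.21 for *FRE3* and -0.04 for *FRE5*. The other neighbours at this dose ranged from -0.04 to 0.62, with *HPA3* (-0.01) and *AVT2* (0.27) beside *SIT1*, YHL041W (0.04) and *EFM1* (0.43) beside *ARN1*, and *COS8* (0.15) and *PAU13* (0.40) beside *ARN2*. The genes beside *ENB1* were *CSS3* (0.28) and *IMA2* (0.59), and those beside *FIT1* were *HSP31* (0.62) and *STL1* (-0.04). With 40 μg/ml the log2 ratios were 0.43 for *FRE3*, 0.02 for *FRE5*, 0.07 for *HPA3*, 0.17 for *AVT2*, 0.25 for YHL041W, 0.63 for *EFM1*, -0.10 for *COS8*, 0.10 for *PAU13*, 0.73 for *CSS3*, 0.34 for *IMA2*, 0.27 for *HSP31* and 0.02 for *STL1*. Of these, *EFM1* (adjusted p = 0.0290) and *CSS3* (adjusted p = 0.0209) passed as higher at 40 μg/ml, where 13.0% of all genes did.

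Other genes had profiles close to the median of each group. By Euclidean distance over the log2 ratios of the 8 arrays, the genes closest to the median profile of the 4 transporter genes were *MIG3* (0.72), *DSF1* (0.79) and *GYP7* (0.80), while the transporter genes themselves lay at 1.00 (*ARN1*) to 2.46 (*SIT1*). The genes closest to the median profile of the 3 *FIT* genes were *DMA1* (0.29), *BNA4* (0.32) and *MPH2* (0.33), and the *FIT* genes lay at 0.65 (*FIT1*) to 2.32 (*FIT2*). These distances are a description over arrays that share dyes and cultures, with no test.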

How the data were processed

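Images were quantified by the authors with MagicTool 2.1. For every array they deposited the intensity of 6688 features in each channel, as mean and total of foreground and background, with no normalization. A table of ratios was deposited too, and is used here as a signed score. Compared with the intensities, it gave the ratio of red to green total foreground, with a sign and times 1 factor per array. How that factor was set is not given in the sources used here. On the log2 scale the medians of its columns lay between -0.21 and 0.11, and 6377 genes were used. The methods give 2 genome copies per array, but the files hold 1 value per feature.

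Here, mean intensities were corrected with normexp (fitted to every spot, offset 50) and log ratios were normalized by loess in each array, where 85 blank and 23 control spots had weight 0. Swapped arrays were turned by the dyes of the labels, and the dye-reversal arrays of a replicate were averaged. The log2 ratios of 6388 genes, 5849 of them named in RefSeq (assembly R64), were tested in R 4.3.3 with lmFit and eBayes of limma 3.58.1. Tests were two-sided, p-values were adjusted over the whole table by Benjamini-Hochberg, and an adjusted p under 0.05 was called passing. The spread was estimated once for both doses, with 2 residual and 5.66 prior degrees of freedom. The labels call the replicates biological and share only their numbers between doses. The number of arrays limits the precision. The calculation was tested on simulated data in which a gene had the same spread in every replicate. The replicates of these data differed in spread, so the simulation checked the calculation and not the calls.

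All 7 genes were named. Of the other iron genes those past the threshold were named, along with chromosomal neighbours and the 3 nearest profiles. The members and lists were chosen with earlier results of these data known. Signal shared between related genes could not be checked, as probe sequences were not used here.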

Additional observations from a re-analysis of the deposited data

Results flagged for a closer look

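The log2 ratio of *ENB1* on array B of replicate 1 of 40 μg/ml, 1.25, stood far from the other 3 arrays of this dose, with a gap of 0.925 of the whole range. The untreated spot was not above blank on that array.

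The log2 ratio of *FIT2* on array A of replicate 1 of 80 μg/ml, 0.47, stood below the other 3 arrays, with a gap of 0.945 of the range. All gene spots of that array were dim, with medians of 708 in treated and 515 in untreated cells. Of the 14 sets of 4 arrays tested (7 genes at 2 doses), chance marks about 1 in 20, and dye-reversal partners are not independent.

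The log2 ratios of *FIT3* were below 0 on all 4 arrays of 80 μg/ml and above 0 on all 4 arrays of 40 μg/ml, a difference of -0.41. The test of this difference missed the threshold (limma, adjusted p = 0.331), and at 80 μg/ml the spot was above blank on 1 of 4 arrays.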

How the results depend on the processing

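The number of the 7 genes that passed at 80 μg/ml, 3, fell to 1 with plain background subtraction and to 1 with total brightness, and reached 5 with arrays scaled to 1 spread and 5 with each dose fitted alone. It ranged from 1 to 5 when a replicate was left out. At 40 μg/ml the number, 1, was 0 with subtraction and 0 with total brightness, 3 with a crossed replicate block, 2 without array A of replicate 1 of 80 μg/ml, and 1 to 4 when a replicate was left out. Between the doses the number, 0, was 2 with scaled arrays, 2 with the replicate block and 2 with the crossed block. It was 1 with only treated cDNA in Cy3 and 1 without array A of replicate 2 of 80 μg/ml. The crossed block and the array left out were chosen after seeing the data. The replicate block left the counts at the doses at 3 and 1, and the correlation of deviations between equal numbers was -0.14. Under the criteria of the methods 0 genes passed, against 1 with 2-fold and 1 without the limit on the difference.

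With total brightness the background covered a median of 331 pixels and the spot 49, so that background exceeded the spot in 39.5% of values. With mean brightness this held for 0.585%. Calls or signs that changed with total brightness therefore cannot tell how firm a result is. This setting turned *ARN1* (-0.0024) and *ARN2* (-0.049) at 40 μg/ml, *FIT1* at 80 μg/ml (-0.0087) and the dose differences of *ARN2* (0.45) and *FIT1* (-0.12). The dose difference of *ARN2* was also positive with scaled arrays (0.21), the deposited table (0.026), treated cDNA in Cy5 (0.30), without array A of replicate 1 of 80 μg/ml (0.10), and from -0.37 to 0.17 when a replicate was left out. That of *FIT1* was negative with median centring (-0.41), the table (-0.31) and treated cDNA in Cy3 (-0.070), and lay between -0.10 and 0.25 when a replicate was left out. *FIT1* at 40 μg/ml was -0.10 with subtraction and, with a replicate left out, -0.017 to 0.18 at 40 μg/ml and -0.016 to 0.33 at 80 μg/ml. *ENB1* at 40 μg/ml was -0.026 with treated cDNA in Cy5, and the dose difference of *FIT2* was -0.010 to 0.43 with a replicate left out. For these the cause was not tested. Of 350 values of the 7 genes under alternatives, 291 kept direction and side of the threshold. Leaving out a replicate of either dose gave, at the other dose, the same fit as that dose fitted alone. Tallies of alternatives therefore count this fit more than once.

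Of all genes, 225 passed at 80 μg/ml, against 53 with subtraction, 45 with total brightness, 1500 with scaled arrays, 1415 with each dose alone, 469 with the replicate block, 702 with the crossed block, 468 without array A of replicate 2 of 80 μg/ml, and 82 to 1415 with a replicate left out. At 40 μg/ml 1489 passed, against 389 with subtraction, 424 with total brightness, 885 with treated cDNA in Cy3, and 1080 to 3059 with a replicate left out. The crossed block gave 2127 at 40 μg/ml, and leaving out array A of replicate 1 of 80 μg/ml gave 1644. Between the doses 9 passed, against 0 with subtraction, 597 with scaled arrays, 440 with the replicate block and 830 with the crossed block. The number was 16 with treated cDNA in Cy3 and 73 without array A of replicate 2 of 80 μg/ml. Subtraction gave no value for *ENB1* and *FIT3*, a filter on dim spots left 2 of 7 genes, and doses fitted alone gave no difference.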
